A study of Homo sapiens with 9 samples.

Results

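The genes described here are 10 genes of the MHC class II route, chosen by symbol from a table of 42717 genes and all found in it. They are the class II transactivator CIITA, the RFX subunits RFX5, RFXAP and RFXANK, the invariant chain CD74, and the class II chains HLA-DRA, HLA-DPA1, HLA-DPB1, HLA-DOA and HLA-DQB1. Their RNA was measured in cultured cells of a human pancreatic ductal adenocarcinoma line, SUIT-2, from which the sublines S2-007, S2-028 and S2-020 had been derived. In S2-007 cells the tumor suppressor maspin lies in the nucleus and the cytoplasm, in S2-028 cells it lies mainly in the cytoplasm, and S2-020 cells carry little of it. All lines grew in DMEM with serum, the labels name no treatment, and each line gave 3 libraries of poly(A) RNA, 9 in all. The labels do not say whether the libraries of a line came from separate cultures, so p-values measure only the spread between these libraries, which may be technical.

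Class II molecules carry peptides of engulfed proteins to the cell surface, where CD4+ T cells read them. Their genes are switched on together by an assembly of RFX, NF-Y and CREB family factors on conserved X and Y boxes before each gene, to which CIITA binds without touching DNA itself. CD74 fills the peptide groove of a new class II molecule and guides it to the endosome, and a part of CD74 reaches the surface, where it binds the cytokine MIF. Professional antigen presenting cells make these RNAs constantly, whereas most epithelial and tumor cells make them mainly under interferon-gamma.

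By RefSeq (GRCh38.p14) the class II chains lie within the MHC on the short arm of chromosome 6, with HLA-DRA at chr6:32439887-32445046 (plus strand), HLA-DQB1 at chr6:32659467-32666657 (minus strand), HLA-DOA at chr6:33004182-33009591 (minus strand), HLA-DPA1 at chr6:33064569-33080748 (minus strand) and HLA-DPB1 at chr6:33075990-33089696 (plus strand), and the others lie on 5 further chromosomes, with RFX5 at chr1:151340640-151347252 (minus strand), CD74 at chr5:150401639-150412910 (minus strand), RFXAP at chr13:36819222-36829104 (plus strand), CIITA at chr16:10866206-10943021 (plus strand) and RFXANK at chr19:19192258-19201866 (plus strand). The sequences just before the starts of these genes are shown because the X and Y boxes lie there. Windows of 170 bases from RefSeq (GRCh38.p14) were matched by symbol for 8 of the 10 genes, and CIITA and HLA-DRA were not matched. The 5 windows are from chr5:150412911-150413080, minus strand (CD74), chr6:32666658-32666827, minus strand (HLA-DQB1), chr6:33009592-33009761, minus strand (HLA-DOA), chr6:33073650-33073819, minus strand (HLA-DPA1, one of its annotated starts) and chr6:33075820-33075989, plus strand (HLA-DPB1). Capitals mark CCNAGNNAC, from the 5′ part of the X box, ACNGATG, from its 3′ part, which can overlap the former, and CCAAT, the Y box core, each on either strand, so ATTGG is a CCAAT of the opposite strand.
CD74: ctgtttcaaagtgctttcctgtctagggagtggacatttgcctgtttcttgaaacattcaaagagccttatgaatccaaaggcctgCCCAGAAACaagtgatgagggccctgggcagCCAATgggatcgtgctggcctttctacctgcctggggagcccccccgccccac
HLA-DQB1: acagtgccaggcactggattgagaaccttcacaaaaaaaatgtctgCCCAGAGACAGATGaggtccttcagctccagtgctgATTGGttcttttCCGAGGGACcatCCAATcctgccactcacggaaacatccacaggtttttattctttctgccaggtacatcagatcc
HLA-DOA: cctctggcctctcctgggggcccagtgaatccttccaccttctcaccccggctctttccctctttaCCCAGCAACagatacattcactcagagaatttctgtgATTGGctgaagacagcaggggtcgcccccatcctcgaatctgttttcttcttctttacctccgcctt
HLA-DPA1: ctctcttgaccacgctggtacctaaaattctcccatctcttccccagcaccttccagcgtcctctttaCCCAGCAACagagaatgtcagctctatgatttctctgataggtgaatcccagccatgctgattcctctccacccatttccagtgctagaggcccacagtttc
HLA-DPB1: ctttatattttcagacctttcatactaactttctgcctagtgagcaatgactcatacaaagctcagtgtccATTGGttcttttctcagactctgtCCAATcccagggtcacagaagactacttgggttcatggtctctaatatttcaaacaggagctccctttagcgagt
CCAAT was found in 4 of the 5 genes (CD74, HLA-DQB1, HLA-DOA and HLA-DPB1) and in 25.4% of all 35116 windows of this length. CCNAGNNAC, a pattern added after the sequences had been seen, was found in 4 of the 5 genes (CD74, HLA-DQB1, HLA-DOA and HLA-DPA1) and in 9.41% of all windows. The sense CCNAGNNAC followed by CCAAT within 45 bases, likewise added after the sequences had been seen, was found in CD74, HLA-DQB1 and HLA-DOA, in 2 of 8 other class II genes with a window, in none of the 3 RFX subunits, and in 0.319% of all windows. As both patterns were drawn from these genes, their shares in them are no test. ACNGATG was found in HLA-DQB1 alone of the 5 genes and in 4.19% of all windows. CGTCA, part of a cyclic AMP response element, was found in 1 of the 5 genes (16.6% of all windows), GCAAC in 2 (20.7%) and TTCNNNGAA, the gamma-activated site, in 0 (4.14%). The CGTCA lay in another window of HLA-DPA1, chr6:33080749-33080918, which is not shown, and in none of the windows shown. A gene was counted where any of its windows held the pattern, whereas the shares are per window. These matches describe the letters of the windows and no binding was measured.

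Libraries held 60328748 to 86253923 mapped reads on genes, fewest in S2-028. The chi-square statistic per gene was between 8.41 and 23.7 for libraries of the same line and between 231 and 351 for libraries of different lines, so no library was a copy of another and each line stood together. Markers of epithelial cells were found in every line and were lowest in S2-020. The 6 epithelial markers summed to 9352 to 9846 CPM (counts scaled to library size with TMM factors) in S2-007, 4269 to 5385 CPM in S2-020 and 14448 to 16947 CPM in S2-028. The 10 markers of professional antigen presenting cells summed to 3.51 to 4.88 CPM over all 9 libraries, and CD1C had 3 counts or fewer in every S2-020 and S2-028 library. The 6 fibroblast markers summed to 2.46 to 6.20 CPM, and COL1A2 had 3 counts or fewer in every S2-028 library.

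CD74, HLA-DRA, HLA-DPA1, HLA-DPB1 and HLA-DQB1 were far lower in S2-020 than in S2-007, with mean levels between 4.61-fold lower for HLA-DQB1 and 693-fold lower for HLA-DRA. The mean level of CIITA was 1.48-fold lower in the same comparison, and that of RFX5 was 1.16-fold higher. S2-028 cells had the class II chains HLA-DRA, HLA-DPA1 and HLA-DPB1 at 43.4%, 55.1% and 38.6% of their S2-007 means and CD74 at 130%. A test of any difference among the 3 lines called 13360 of 28019 genes (47.7%) at an adjusted p under 0.05 (edgeR quasi-likelihood F-test with Benjamini-Hochberg adjustment), and all 10 genes were among them. In the pairwise comparisons below a gene was called where its adjusted p was under 0.05 and its fold change was at least 1.5-fold. The 3 comparisons share libraries, so their results are not independent.

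**Figure D1:**
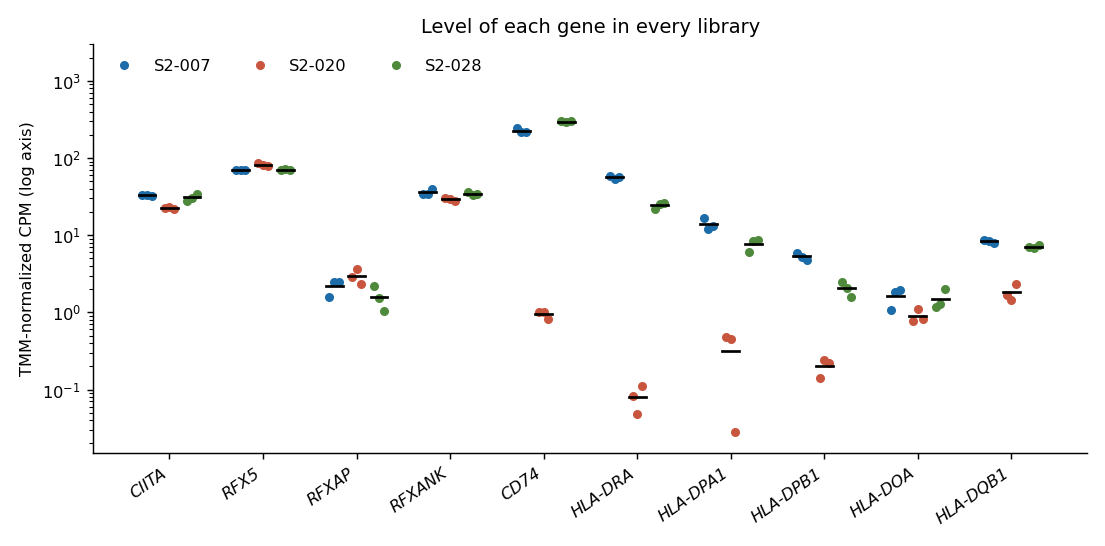
TMM-normalized CPM on a log axis (y) of the 10 genes (x) in each library, as 3 points per line with a black bar at the mean. CD74 and HLA-DRA were near or below 1 CPM in the 3 S2-020 libraries, while CIITA stayed between 21.7 and 34.4 CPM in all 9.

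CIITA, the coactivator of the class II genes, was found in all 3 lines. It had 33.1, 33.2 and 32.3 CPM in the S2-007 libraries, 22.2, 22.9 and 21.7 CPM in the S2-020 libraries and 27.7, 30.7 and 34.4 CPM in the S2-028 libraries. S2-020 lay below the other lines in every library, and S2-007 and S2-028 overlapped. The log2 fold change of CIITA was −0.59 ± 0.07 (SE) in S2-020 against S2-007 (adjusted p = 7.88e-07, edgeR quasi-likelihood F-test), just past the 1.5-fold limit. This call was lost under 8 of 16 alternatives (range −0.65 to −0.56), among them DESeq2 (−0.56) and leaving out S2-007 replicate 1 (−0.57), 2 (−0.57) or 3 (−0.58) or S2-020 replicate 3 (−0.57). The log2 fold change was −0.09 ± 0.08 in S2-028 against S2-007 (adjusted p = 0.508) and 0.47 ± 0.09 in S2-028 against S2-020 (adjusted p = 0.000155), the latter under the fold limit. DEXI lies on the opposite strand, overlaps exons of CIITA and had 186 to 412 counts in each library. Genes on the opposite strand cover 11.5% of the exon bases of CIITA, and genes on the same strand 10.5%. The study describes its libraries as strand-specific, but how strand entered the counting is not given in the sources used here. Reads of CIITA and these genes may therefore be shared in part. A share of 19.2% of the 31-base words of CIITA also occurs in other annotated genes, a gene whose exons overlap those of CIITA holding more of them than any other.

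RFX5, RFXAP and RFXANK, which together form the RFX complex that binds the X box, had far smaller log2 fold changes than HLA-DRA, HLA-DPA1 and HLA-DPB1 in the comparisons with S2-020. RFX5, the DNA-binding subunit, had 70.6, 70.7 and 70.4 CPM in S2-007, 85.0, 80.2 and 79.4 CPM in S2-020 and 70.9, 71.7 and 69.2 CPM in S2-028. It was thus higher in every S2-020 library than in the others, with a log2 fold change of 0.18 ± 0.06 against S2-007 (adjusted p = 0.0138), which is below the fold limit. RFXANK, the ankyrin-repeat subunit, had 34.0, 34.3 and 40.1 CPM in S2-007, 30.7, 29.5 and 27.8 CPM in S2-020 and 35.9, 33.2 and 34.0 CPM in S2-028. Its log2 fold change was −0.33 ± 0.07 in S2-020 against S2-007 (adjusted p = 0.00118) and 0.23 ± 0.07 in S2-028 against S2-020 (adjusted p = 0.0171), without overlap and in the directions of the class II chains, but below the fold limit. Genes on the opposite strand cover 23.3% of the exon bases of RFXANK and 10.5% of those of RFX5. RFXAP, the RFX-associated protein, had 1.60, 2.49 and 2.47 CPM in S2-007, 2.91, 3.64 and 2.34 CPM in S2-020 and 2.22, 1.52 and 1.05 CPM in S2-028. It fell by 0.89 ± 0.26 on the log2 scale in S2-028 against S2-020 (adjusted p = 0.00968), a call lost without S2-020 replicate 2 (−0.72, adjusted p = 0.0686) or S2-028 replicate 3 (−0.65, adjusted p = 0.0576). The other log2 fold changes of RFXAP were −0.45 ± 0.28 in S2-028 and 0.41 ± 0.22 in S2-020, each against S2-007, neither of which passed the test.

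CD74, the invariant chain, had 245.8, 219.1 and 216.2 CPM in S2-007 and 298.0, 291.5 and 297.8 CPM in S2-028 but 1.00, 1.02 and 0.809 CPM in S2-020. The S2-020 counts were 72, 85 and 58, against at least 15914 in each library of the other lines. CD74 fell by 7.93 ± 0.10 on the log2 scale in S2-020 against S2-007 (adjusted p = 2.64e-21), a mean level 240-fold lower. It was higher in S2-028 than in S2-020 by 8.28 ± 0.08 (adjusted p = 9.12e-22). It was also higher in every S2-028 library than in any S2-007 library, by 0.38 ± 0.06 (adjusted p = 4.76e-05), which did not reach the fold limit.

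HLA-DRA, the alpha chain of HLA-DR, had 58.5, 54.1 and 56.0 CPM in S2-007, 22.1, 25.3 and 25.8 CPM in S2-028 and 0.0835, 0.0481 and 0.112 CPM in S2-020. The S2-020 counts were 6, 4 and 8, close to the floor of 3 counts taken here as the limit of detection. The log2 fold change was −9.47 ± 0.15 in S2-020 against S2-007 (adjusted p = 5.31e-20), which was the tenth lowest value among 26657 genes tested. HLA-DRA fell by 1.20 ± 0.08 on the log2 scale in S2-028 against S2-007 (adjusted p = 5.58e-11), the opposite direction to CD74 in the same libraries.

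HLA-DPA1 and HLA-DPB1, the chains of HLA-DP, had the same order of lines. HLA-DPA1 had 16.7, 12.2 and 13.1 CPM in S2-007, 6.11, 8.38 and 8.61 CPM in S2-028 and 0.473, 0.457 and 0.0279 CPM in S2-020. The last of these libraries had 2 counts, and the other S2-020 libraries 34 and 38. HLA-DPB1 had 5.96, 5.21 and 4.81 CPM in S2-007, 2.48, 2.10 and 1.59 CPM in S2-028 and 0.139, 0.241 and 0.223 CPM in S2-020. In S2-028 against S2-007, HLA-DPA1 fell by 0.86 ± 0.15 (adjusted p = 6.56e-05) and HLA-DPB1 by 1.37 ± 0.20 (adjusted p = 1.03e-05) on the log2 scale. The call of HLA-DPA1 was lost under 1 of 16 alternatives, a test with 1.5-fold as the null hypothesis (adjusted p = 0.0814, range over the alternatives 3.22e-10 to 0.0814). In S2-020 against S2-007, the log2 fold change was −5.45 ± 0.33 for HLA-DPA1 (adjusted p = 3.20e-11) and −4.74 ± 0.25 for HLA-DPB1 (adjusted p = 5.54e-12).

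HLA-DQB1, the beta chain of HLA-DQ, had 8.77, 8.36 and 7.96 CPM in S2-007, 7.09, 6.74 and 7.36 CPM in S2-028 and 1.66, 1.44 and 2.34 CPM in S2-020. It fell by 2.24 ± 0.18 on the log2 scale in S2-020 against S2-007 (adjusted p = 2.37e-09), and its value in S2-028 against S2-007 was −0.24 ± 0.13 (adjusted p = 0.178). A share of 8.70% of the 31-base words of HLA-DQB1 occurs in other annotated genes, HLA-DQB2 holding more of them than any other, and HLA-DQB2 had 0 to 10 counts in each library. HLA-DOA, a chain of the HLA-DO regulator of peptide loading, had 1.07, 1.84 and 1.97 CPM in S2-007, 0.766, 1.11 and 0.823 CPM in S2-020 and 1.16, 1.28 and 2.00 CPM in S2-028. The S2-007 and S2-020 libraries overlapped, and the log2 fold change was −0.88 ± 0.29 (adjusted p = 0.0186). This call was lost without S2-007 replicate 2 (adjusted p = 0.0835) or 3 (adjusted p = 0.107), or S2-020 replicate 1 (adjusted p = 0.0708) or 3 (adjusted p = 0.0585).

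**Figure D2:**
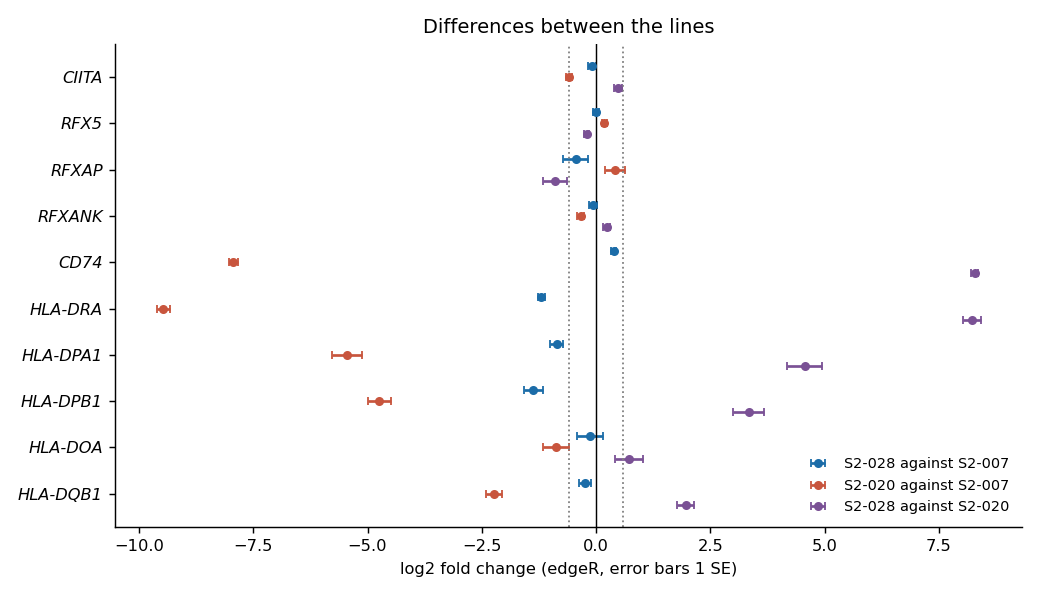
Log2 fold change (x) with 1 SE from the edgeR fit for each of the 10 genes (y) in the 3 comparisons, named by colour. Dotted lines mark the 1.5-fold limit. CD74 (−7.93 and 8.28) and HLA-DRA (−9.47 and 8.23) lie farthest from 0 in the comparisons with S2-020, and RFX5, RFXANK, CIITA, RFXAP and HLA-DOA lie within 0.90 of 0 in all 3 comparisons.

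Counted over the 10 genes, 3 fell and 0 rose in S2-028 against S2-007 (edgeR), where 18.4% of the 26371 genes tested were called (8.19% lower and 10.2% higher). The 3 were HLA-DRA, HLA-DPA1 and HLA-DPB1. The log2 fold changes of the 10 genes had a median of −0.19, against 0.00 for every gene tested. At an unadjusted p under 0.05, 1 gene (CD74) was higher, and DESeq2 also called 0 higher. In S2-020 against S2-007, 7 fell and 0 rose (edgeR), where 21.6% of 26657 genes were called (12.1% lower and 9.57% higher), with a median of −1.56 beside −0.05 over all genes. At an unadjusted p under 0.05, 1 gene (RFX5) was higher there, and DESeq2 again called 0 higher and 6 lower. In S2-028 against S2-020, 5 rose and 1 fell, where 22.2% of 26031 genes were called (12.1% higher and 10.1% lower), with a median of 1.34 beside 0.02 over all genes. As the samples are bulk RNA, fewer cells making an RNA and less RNA per cell cannot be told apart.

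Epithelial markers moved with CD74 and the class II chains in the comparisons with S2-020. In S2-020 against S2-007, 5 of the 6 markers fell, where 12.1% of all genes were called lower. Among them CLDN7 fell by 4.81 and KRT19 by 4.40 on the log2 scale, the smallest called fall was 0.76, and the marker not called had −0.29. In S2-028 against S2-020 all 6 rose, where 12.1% of all genes were called higher. In S2-028 against S2-007, where HLA-DRA fell, 4 of the 6 rose, beside 10.2% of all genes called higher. Their part in the differences of CD74 and the class II chains was not tested. The called markers of professional antigen presenting cells went in opposite directions. FLT3, a receptor of dendritic cell precursors, had 0 to 10 counts in the S2-007 libraries, 78 to 98 in S2-020 and 6 to 36 in S2-028, and CD14, a monocyte marker, had 36 to 62 counts in the S2-007 libraries and 2 to 8 in the others.

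Within a library, the ratio of 2 genes does not depend on the scaling. The log2 ratio of CD74 to HLA-DRA counts was 2.01 ± 0.06 (SD, n = 3) in S2-007 and 3.60 ± 0.13 in S2-028, without overlap. The difference of 1.59 had an exact permutation p of 0.1 (two-sided), the smallest that 3 against 3 libraries allow, and 0.18 after adjustment over 9 such tests. In S2-020 the ratio was 3.62 ± 0.78 on 4 to 8 HLA-DRA counts, with the 3 libraries spread from 2.86 to 4.41. For HLA-DRA to CIITA the S2-007 libraries had a log2 ratio of 0.77 ± 0.06, the S2-028 libraries −0.34 ± 0.07 and the S2-020 libraries −8.18 ± 0.65, and no 2 lines overlapped (exact permutation p = 0.1 each, adjusted p = 0.18). The log2 ratio of HLA-DPA1 to HLA-DPB1 was 1.38 ± 0.14 in S2-007 and 1.91 ± 0.57 in S2-028, which overlapped (exact permutation p = 0.3). In S2-020 it was −0.10 ± 2.54, set by the library with 2 HLA-DPA1 counts, and leaving out single libraries moved its difference from S2-007 between −2.42 and −0.04.

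**Figure D3:**
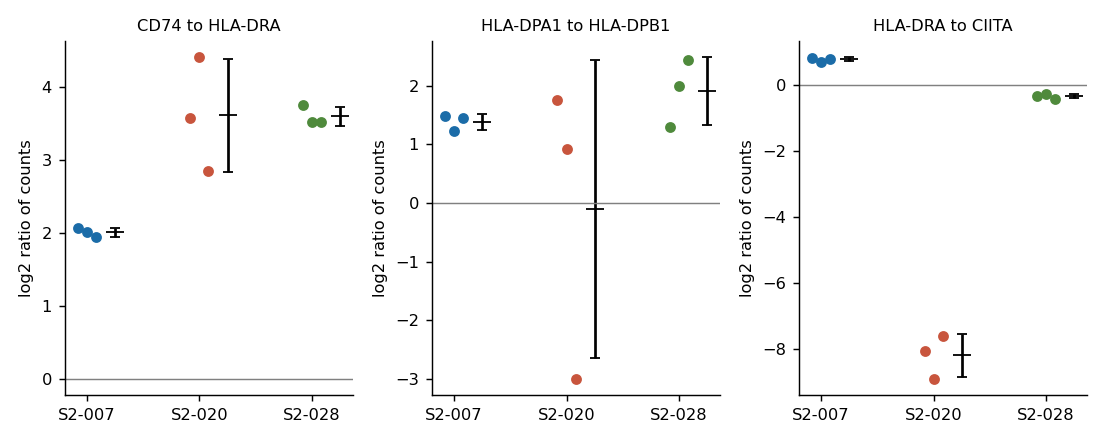
Log2 ratio of counts (y) of 3 pairs of genes within each library, by line (x), as points, with the mean and SD of 3 libraries as black bars. HLA-DRA to CIITA separates the 3 lines, at 0.77 in S2-007, −0.34 in S2-028 and −8.18 in S2-020.

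Levels of different genes were compared per kilobase of the canonical transcript. In S2-007 the order was CD74 (137 ± 9.87 CPM per kb, SD, n = 3), HLA-DRA (45.5 ± 1.79), RFXANK (26.2 ± 2.48), RFX5 (19.8 ± 0.0376), HLA-DPA1 (8.20 ± 1.39), HLA-DQB1 (5.21 ± 0.252), CIITA (2.05 ± 0.0303), HLA-DPB1 (1.33 ± 0.147), RFXAP (0.949 ± 0.219) and HLA-DOA (0.470 ± 0.141). In S2-028 the top was CD74 (179 ± 2.24 CPM per kb), and RFX5 (19.8 ± 0.358) and HLA-DRA (19.8 ± 1.62) did not differ beyond their spread. In S2-020 RFX5 (22.8 ± 0.841) and RFXANK (21.3 ± 1.07) led, followed by CIITA (1.39 ± 0.0365), RFXAP (1.29 ± 0.283) and HLA-DQB1 (1.13 ± 0.293), which lay within their spread, and CD74 was at 0.571 ± 0.0713. HLA-DPA1 (0.187 ± 0.148), HLA-DRA (0.0656 ± 0.0257) and HLA-DPB1 (0.0503 ± 0.0136) had the lowest means in S2-020 and overlapped, the HLA-DPA1 library with 2 counts lying below every library of the other two. CD74 stood at percentile 97.9 of 20608 genes in S2-007 and 98.6 in S2-028 and at percentile 34.5 in S2-020, each the median of 3 libraries. The canonical transcript of CIITA has 16061 bases, 12517 of them in a single exon, whereas the longest exon of RFXANK has 297. The alignment did not join reads across introns, so genes with short exons may be counted too low beside others. The size of this effect on the orders and percentiles was not tested. Per kilobase of coding sequence, a length added after seeing the data, the S2-007 means were 9.70 CPM for CIITA, 10.7 for HLA-DQB1 and 6.88 for HLA-DPB1, so CIITA lay between the same genes by either length. Per kilobase of all annotated exons joined, the S2-007 means were 50.2 CPM for CD74, 45.2 for HLA-DRA, 15.5 for RFX5 and 14.4 for RFXANK. By this length HLA-DRA had 19.6, RFX5 15.5 and RFXANK 13.7 in S2-028. In S2-020 RFXAP had 1.285, CIITA 0.988 and HLA-DQB1 0.371, so parts of the orders above depend on the length taken.

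**Figure D4:**
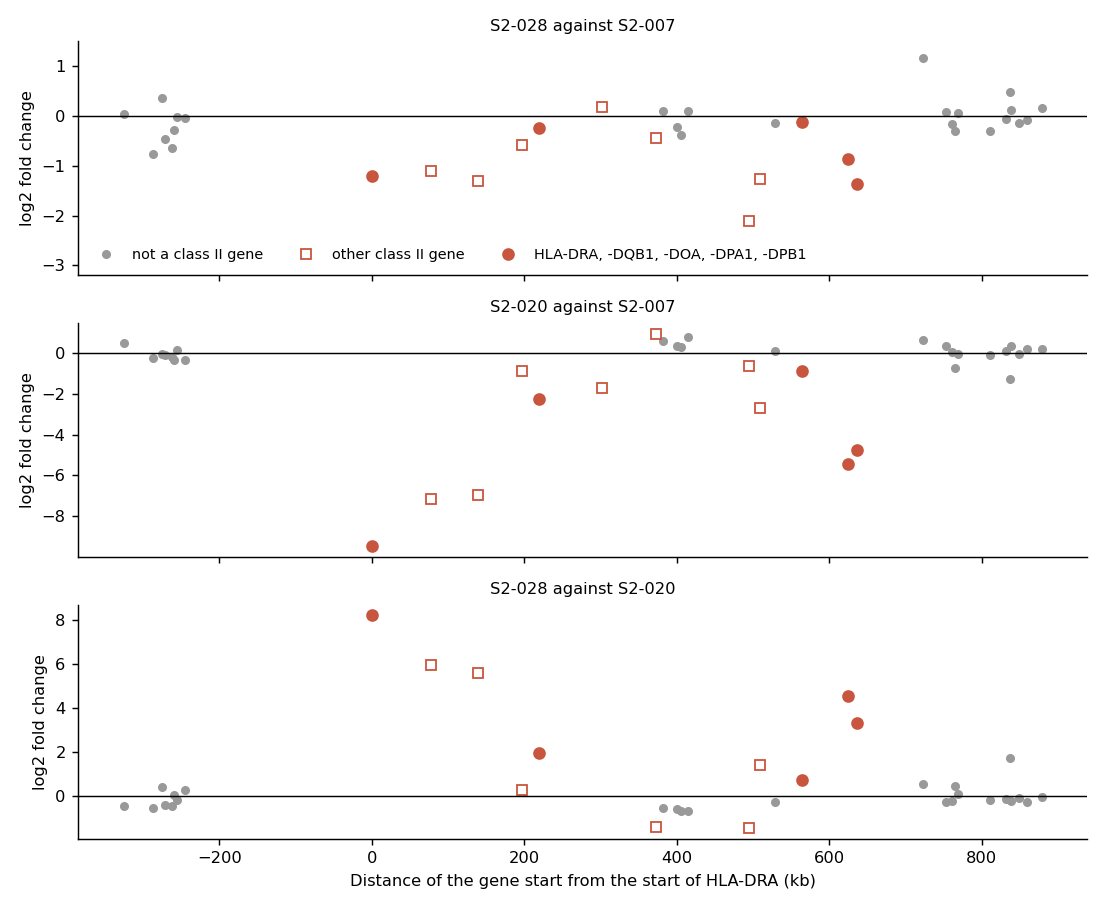
Log2 fold change (y) of genes around the class II region of chromosome 6 against the distance of their start from that of HLA-DRA in kb (x), in the 3 comparisons. Filled red points are HLA-DRA, HLA-DQB1, HLA-DOA, HLA-DPA1 and HLA-DPB1, open squares other class II genes, and grey points genes of other kinds; HLA-DRB3 and HLA-DRB4, placed outside this region by RefSeq, are not drawn. HLA-DRA (−9.47) and HLA-DPA1 (−5.45) stand far below the grey points in S2-020 against S2-007.

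The other class II genes gave the background of the pathway. Of 10 such genes, 9 were tested in S2-028 against S2-007, of which 6 fell and the other 3 did not pass, with a median on the log2 scale of −1.11. In S2-020 against S2-007, 6 of 9 fell, with a median of −2.71, and in S2-028 against S2-020, 4 of 7 rose and 1 fell, with a median of 1.42. The shares called over all genes in these 3 comparisons were 18.4%, 21.6% and 22.2%. HLA-DRB1, the main beta chain partner of HLA-DRA, had 69.4, 56.6 and 62.8 CPM in S2-007, 24.6, 25.5 and 26.1 CPM in S2-028 and 0.613, 0.577 and 0.376 CPM in S2-020. HLA-DRB5, a close copy that may share reads with it, had 320 to 344 counts in S2-007, 95 to 184 in S2-028 and 0 to 4 in S2-020. HLA-DRB1, HLA-DRB3, HLA-DRB4 and HLA-DRB5 were among the 6 that fell in each comparison against S2-007. Where the DRB genes share reads, their calls are not separate. HLA-DMA, a chain of the HLA-DM peptide exchanger, had log2 fold changes of −2.71 ± 0.10 in S2-020 and −1.26 ± 0.09 in S2-028, each against S2-007. HLA-DMB, the other chain of HLA-DM, had another order of lines: 58.7, 54.6 and 42.3 CPM in S2-007, 38.3, 33.6 and 28.1 CPM in S2-020 and 11.2, 14.1 and 11.0 CPM in S2-028. It fell by 1.46 ± 0.12 on the log2 scale in S2-028 against S2-020 (adjusted p = 3.78e-09), where HLA-DRA and HLA-DMA rose.

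Of the 27 genes of the region that are not class II genes, 25 were tested. Of these, 1 rose and 2 fell in S2-028 against S2-007 (median −0.06), 2 rose and 2 fell in S2-020 against S2-007 (median 0.06), and 1 rose and 2 fell in S2-028 against S2-020 (median −0.21). The shares called over all genes were 18.4%, 21.6% and 22.2%, so these counts lie near or below the background. TAP2 and PSMB9, which supply peptides to class I molecules, rose in S2-020 against S2-007 by 0.59 ± 0.06 and 0.75 ± 0.08 on the log2 scale, while HLA-DRA, HLA-DPA1 and HLA-DPB1 fell there.

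**Figure D5:**
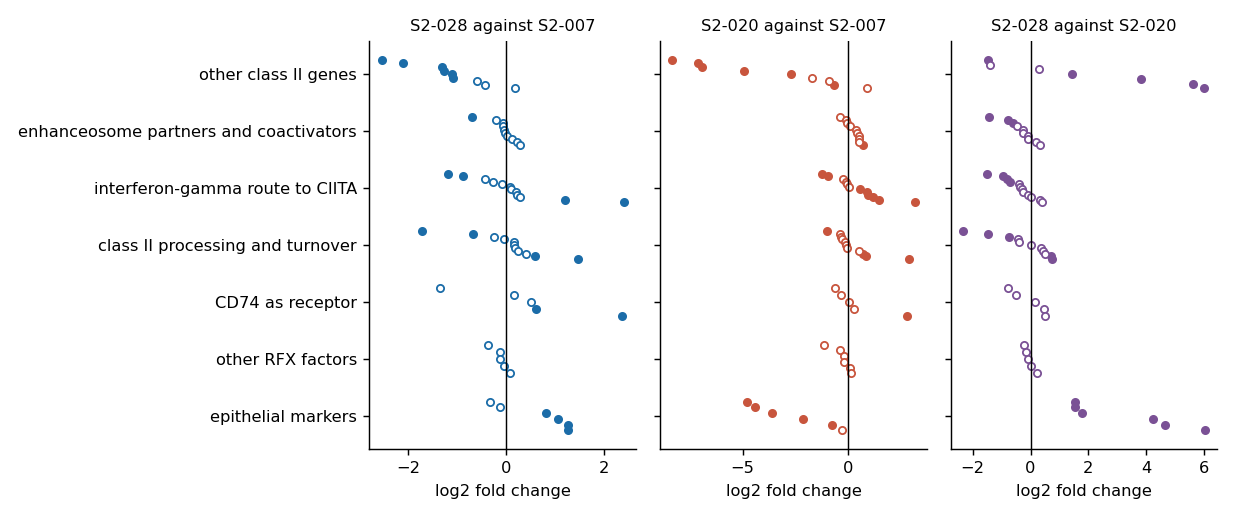
Log2 fold change (x) of the genes of 7 lists (y) in the 3 comparisons, filled where called and open where not. Lists are described by counts and medians, with 6 of 9 other class II genes lower in S2-020 than in S2-007.

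Genes of the interferon-gamma route to CIITA, inhibitors included, went in both directions in S2-020. Of 12 such genes, 6 rose and 2 fell in S2-020 against S2-007 (median 0.33), where 21.6% of all genes were called. Among the 6 that rose were SOCS1, SOCS3 and PTPN2, which inhibit the signal, and PRDM1, a repressor of CIITA, 4 genes named after their values were seen. IRF1, a factor that binds an interferon-driven promoter of CIITA, had 42.7 to 47.6 CPM in S2-007, 89.5 to 90.5 CPM in S2-020 and 44.6 to 49.9 CPM in S2-028, and rose by 0.98 ± 0.06 on the log2 scale (adjusted p = 1.97e-11). JAK1, the receptor's kinase, rose by 0.91 ± 0.05 in the same comparison. IFNGR1 and IFNGR2, the receptor chains, fell in both lines, with log2 fold changes of −0.96 ± 0.07 and −1.21 ± 0.08 in S2-020 and of −1.18 ± 0.08 and −0.87 ± 0.07 in S2-028, each against S2-007. SOCS1 had 22 to 48 counts in S2-007, 280 to 363 in S2-020 and 145 to 155 in S2-028. In S2-028 against S2-007, 2 of the 12 rose and 2 fell (median 0.08), where 18.4% of all genes were called.

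The partners of RFX and CIITA mostly stayed below the fold limit. Of 10 genes for NF-Y, CREB family factors and coactivators, 7 passed the adjusted p alone in S2-020 against S2-007, as did 10708 of all 26657 genes tested. Only KAT2B, an acetyltransferase, was also past the fold limit and so called (21.6% over all genes). KAT2B rose there by 0.70 ± 0.08 on the log2 scale, and the median of the 10 was 0.42. KAT2B fell by 0.69 ± 0.10 in S2-028 against S2-007, the single call of the 10 there (18.4% over all genes), and CARM1, SMARCA4 and KAT2B fell in S2-028 against S2-020 (22.2% over all genes). Of the 7 other RFX family genes, 5 or 6 were tested and edgeR called 0 in each comparison. The shares over all genes were 18.4%, 21.6% and 22.2%, so few calls would be looked for among so few genes. RFX3 passed the adjusted p alone in S2-028 against S2-007 (−0.38, edgeR adjusted p = 0.0351), as did 8927 of all 26371 genes tested.

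Processing genes went in both directions. Of 11 such genes, 2 rose and 2 fell in S2-028 against S2-007 (median 0.17), where 18.4% of all genes were called. In S2-020 against S2-007, 3 rose and 1 fell (median −0.07), where 21.6% of all genes were called. CTSS, the cathepsin that trims CD74 in the endosome, had 14.6, 17.3 and 12.3 CPM in S2-007, 12.0, 12.5 and 12.2 CPM in S2-020 and 4.67, 4.28 and 4.45 CPM in S2-028. It fell by 1.72 ± 0.14 on the log2 scale in S2-028 against S2-007 (adjusted p = 2.46e-09), the comparison in which CD74 was higher by 0.38. LGMN, an endosomal protease, fell by 1.00 ± 0.07 in S2-020 against S2-007, and CTSD, another, rose by 2.91 ± 0.05. Of the genes for CD74 as a receptor, MIF, its ligand, had 241.5 to 268.5 CPM in S2-007, 311.1 to 319.6 CPM in S2-020 and 342.5 to 368.5 CPM in S2-028, and was not called in any comparison. CXCR4, a receptor that can pair with CD74, rose in S2-028 (2.36 ± 0.21) and in S2-020 (2.81 ± 0.18) against S2-007, and CD44, the signalling partner of CD74, rose in S2-028 against S2-007 (0.60 ± 0.06).

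The genes whose log2 CPM over the 9 libraries most resembled that of CIITA, among 3077 genes that differed at least 2-fold between line means, were TENT5A (Pearson r = 0.973), PALM2AKAP2 (0.971), RASEF (0.969), PKIB (0.969) and F3 (0.969). HLA-DRA ranked 38 (r = 0.953) and CD74 136 (r = 0.938) in this order. For CD74 they were ST14 (0.9995), PHACTR3 (0.9993), NEO1 (0.9989), BECN1 (0.9984) and RHOD (0.9983) among 3076 genes, and HLA-DRA ranked 144 (0.984). The 9 libraries are 3 per line and share their normalization, so these values mostly describe 3 line means.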

How the data were processed

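RNA-seq counts of 9 libraries were taken as the authors deposited them: raw whole-number read counts per gene. Per the submitters' processing notes the reads were trimmed with Trimmomatic 0.39 and aligned to GRCh38.p14 with BWA 0.7.17, which does not join reads across introns. The counting tool and its use of strand are not given in the sources used here. The 18 normalized columns were not used, and 2 lines that name no gene stayed out. Libraries were grouped by their labels. Tests were run with edgeR 4.0.16 (R 4.3.3) on the 6 libraries compared: filterByExpr at its defaults (count 10, total 15), TMM scaling and glmQLFTest, the quasi-likelihood F-test. Adjusted p are Benjamini-Hochberg over all genes tested. The methods of the study name a likelihood ratio test, which was an alternative, as were DESeq2 1.42.0, other scalings, filters and libraries. The script was tested on simulated counts. Lengths came from GENCODE, and 42497 IDs (99.5%) matched RefSeq. Counting error alone is covered by a floor of 3 counts. Named genes are the 10 genes and at most 4 per further list, by smallest adjusted p in the test of any difference, with the exceptions that follow. SOCS1, SOCS3, PTPN2 and PRDM1 were named after their values were seen. HLA-DRB3, HLA-DRB4, HLA-DQB2 and DEXI were named for their position or shared sequence, and CD1C and COL1A2 for their low counts. The genes and lists were chosen with earlier results of these data known.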

Additional observations from a re-analysis of the deposited data

How the results depend on the processing

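Over all genes, taking 1.5-fold as the null hypothesis (glmTreat) gave 2977 calls in S2-028 against S2-007, 3639 in S2-020 against S2-007 and 3638 in S2-028 against S2-020, in place of 4858, 5769 and 5788, and adjusted p alone gave 8927, 10708 and 10517. With adjusted p alone, 1 of the 10 genes was higher in S2-028 and 1 in S2-020, each against S2-007, and 2 were lower in S2-028 against S2-020, where glmTreat left 0 lower; glmTreat also left 2 lower in S2-028 against S2-007, without HLA-DPA1 (adjusted p = 0.0814). At least 10 counts in every library left 3 genes higher in S2-028 than in S2-020, since fewer of the 10 genes were tested. Leaving out single libraries gave 5 to 7 genes lower in S2-020 than in S2-007 and 0 to 1 lower in S2-028 than in S2-020. For RFX5 in S2-028 against S2-007 the sign turned under RLE size factors (−0.0064) and DESeq2 (−0.0064) and without S2-007 replicate 3 (−0.0095), S2-028 replicate 1 (−0.0049) or 2 (−0.0103), and so did RFXANK (0.0012) and HLA-DOA (0.018) without S2-007 replicate 3 and HLA-DOA without S2-028 replicate 1 (0.0144), none of them called; over all libraries left out in turn the ranges were −0.0103 to 0.0187 for RFX5, −0.105 to 0.0012 for RFXANK and −0.405 to 0.018 for HLA-DOA. The difference in the CD74 to HLA-DRA ratio between S2-028 and S2-020 was −0.015, 0.38 with a prior count of 2, and between −0.39 and 0.38 without single libraries. Same-numbered libraries did not deviate together over all genes (correlations −0.022 to 0.014), and the main tests did not pair them. These correlations cannot show whether same-numbered libraries were made together. With the replicate block the calls numbered 4865, 5650 and 5716 over all genes, and the tallies of the 10 genes did not change. The cause of these shifts was not tested. The few counts of HLA-DRA and HLA-DPA1 in S2-020 limit their folds.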

Other observations

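NLRC5 and B2M, genes of the class I route, moved in opposite directions in S2-020 against S2-007. NLRC5, the relative of CIITA that switches on class I genes, had 7.98, 6.13 and 6.81 CPM in S2-007, 15.9, 13.6 and 17.6 CPM in S2-020 and 6.56, 6.16 and 5.72 CPM in S2-028. It rose by 1.14 on the log2 scale in S2-020 against S2-007 (edgeR quasi-likelihood F-test, adjusted p = 2.51e-07), where CIITA fell by 0.59. B2M, the light chain of class I molecules, fell by 0.96 in S2-020 and by 1.04 in S2-028, each against S2-007.

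The 50 tested genes nearest to each of the 10 genes, class II genes left out were described by their median. For HLA-DRA the median log2 fold change of these genes was −0.09 in S2-028 against S2-007, −0.03 in S2-020 against S2-007 and −0.19 in S2-028 against S2-020. For CD74 it was −0.09, 0.07 and −0.16. For RFXAP on chromosome 13 it was −0.30, 0.14 and −0.59. In S2-028 against S2-020, where RFXAP fell, 21 of its 50 genes were called lower, beside 10.1% of all genes. Of the 50 genes, 10 were called lower there for CD74 and 4 for HLA-DRA. Whether position played a part was not tested.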
